A study of Drosophila melanogaster with 4 samples.

Results

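The vacuolar ATPase (V-ATPase) genes of Drosophila melanogaster were taken as all genes of the deposited table whose symbol begins with Vha and whose locus is not on chromosome 4. The rule found 20 of 13990 genes. From general knowledge of the fly complex, 13 of them encode the main form of a subunit, 6 encode a paralogue of a subunit and 1 encodes an accessory protein. Total RNA of adult males had been isolated with Trizol and sequenced for 4 genotypes of Ago2, the gene of the Argonaute protein that carries small interfering RNAs. These were the V966M allele as a homozygote, V966M over the balancer chromosome TM3 marked with twi-GFP, Sb and Ser, the 51B allele as a homozygote, and 51B over TM3 marked with Ser and y+. All flies were 0 to 16 hr old and were raised at 25 °C. No genotype was free of a mutant Ago2 allele, and only the heterozygotes carried TM3, a version of chromosome 3 that is inherited as a block, so the allele and the balancer cannot be told apart within a stock.

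The V-ATPase is a rotary proton pump. Its V1 sector, in the cytosol, hydrolyses ATP, and its V0 sector, in the membrane, carries protons. The pump acidifies lysosomes, endosomes and synaptic vesicles, and in insects it also sits in the apical plasma membrane of epithelia such as the Malpighian tubule and midgut, where the proton gradient drives the transport of other ions. Several of its subunits are encoded by more than 1 gene in the fly, usually by a broadly expressed gene and by others of more restricted expression.

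Every value is an FPKM value, which scales fragments to the length of the transcript and to sequencing depth, so levels of different genes can be set side by side. Each genotype has 1 value per gene with a lower and an upper bound, called the deposited interval, so nothing here has a replicate check or a p-value. AGO2 itself was at 150.02 FPKM over TM3 and 101 FPKM as a homozygote in the V966M stock, and at 46.5 and then 6.33 FPKM in the 51B stock. All sets of 4 values below keep this order. The median margin of the deposited interval among the 17 V-ATPase genes analysed was 26.4%, 17.2%, 15.8% and 31.3% of the value. The other 3 genes, Vha16, Vha100-1 and Vha100-2, failed the authors' quantification in at least 1 genotype. Their levels are given as deposited, and they entered no comparison except where stated.

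In the V1 sector, the most abundant transcripts were those of the subunits that form the catalytic head and its outer stalks. Vha55, the only gene of subunit B in the set, had 629.8 FPKM (deposited interval 468 to 791), 506 FPKM (413 to 600), 428 FPKM (355 to 502) and 601 FPKM (386 to 815). Vha68-2, the main gene of the catalytic subunit A, had 420.4 FPKM (305 to 536), 334 FPKM (300 to 369), 276 FPKM (240.1 to 311) and 345 FPKM (315 to 375). Vha55 was the higher gene in all 4 genotypes, and the intervals of Vha55 and Vha68-2 overlapped only in the V966M heterozygote.

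The genes of the stalk subunits G and E, Vha13 and Vha26, lay in the same range. Vha13 had 462 FPKM (337 to 588), 379 FPKM (312 to 446), 387 FPKM (323 to 450.5) and 423 FPKM (286 to 561). Vha26 had 445 FPKM (323 to 568), 289 FPKM (237 to 341), 278 FPKM (232 to 325) and 259.7 FPKM (174 to 345). Vha26 had the largest difference between its highest and lowest genotype among the 11 main genes analysed, 1.71-fold, with its V966M heterozygote the highest, but its intervals overlapped in all 4 genotypes.

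The remaining V1 genes had lower levels. VhaSFD, which encodes the regulatory subunit H, had 190.4 FPKM (169.7 to 211), 148 FPKM (138 to 157), 137 FPKM (129 to 146) and 151 FPKM (138 to 164). Its intervals were the narrowest of the set in every genotype except the 51B homozygote, and it shares its deposited locus with 8 other genes, and the part of this sharing in its value was not tested. Vha44, of subunit C, which links the sectors and is released when the pump disassembles, had 169 FPKM (129.9 to 208), 119 FPKM (102 to 137), 120.5 FPKM (104 to 137) and 128 FPKM (97.1 to 159). Its V966M heterozygote was highest and its other genotypes were close together, with overlapping intervals throughout. Vha44 shares its deposited locus with CG7997 and Hmgs. The central rotor genes were Vha36 of subunit D, with 165, 146, 128 and 139 FPKM, and Vha14 of subunit F, with 139, 116, 104 and 107 FPKM. The intervals of this pair overlapped in each genotype.

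In the V0 sector, the membrane ring gene Vha16 stood far above the other V0 genes. Vha16, which encodes the proteolipid subunit c that is present in several copies per ring, was listed at 867, 559.6, 515 and 509 FPKM, but its quantification status had failed in all 4 genotypes. The 3 main V0 genes with a usable status in all 4 genotypes differed by 1.62-, 1.47-, 1.43- and 1.60-fold from lowest to highest. VhaPPA1-1, of the related ring subunit c'', had 172, 146, 137 and 157 FPKM, and VhaAC39, of subunit d, which couples the ring to the rotor, had 186, 138, 124 and 131 FPKM. VhaM9.7-2, of the small subunit e, had 114, 99.5, 95.6 and 98.5 FPKM, the lowest level of the main genes in every genotype. Vha100-2, of subunit a, which forms the proton path beside the ring, had 148 FPKM (109 to 188), 114 FPKM (94.2 to 134), 108 FPKM (91.4 to 125) and 120.1 FPKM, the last from a failed quantification. The accessory protein gene VhaM8.9, the fly form of the ATP6AP2 or prorenin receptor gene, had 183, 147, 132 and 163 FPKM.

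**Figure D1:**
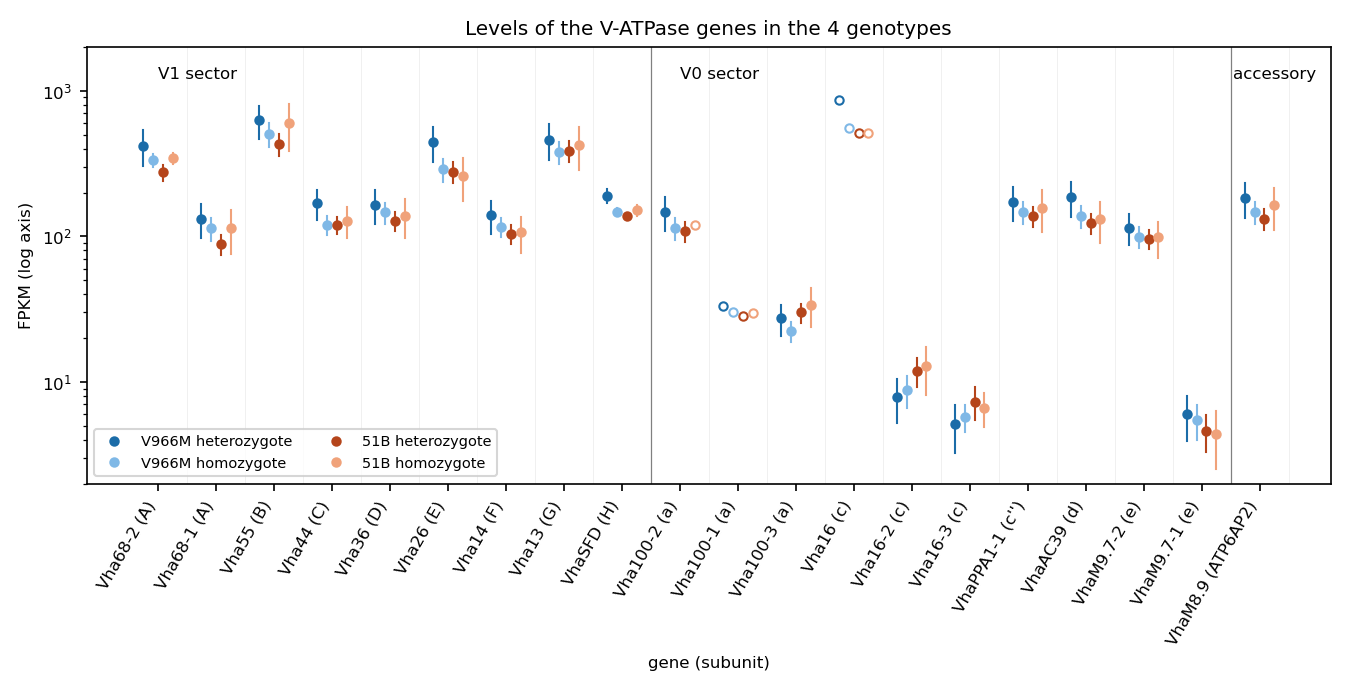
FPKM (log axis) of the 20 V-ATPase genes in each genotype, by sector and subunit, with the deposited interval as a vertical line and 1 value per genotype. Open circles are values with a failed status, drawn without an interval. Main genes lie between 95.6 and 867 FPKM, and 5 of the 6 paralogues lie below 40 FPKM, with Vha68-1 between 88.7 and 132 FPKM.

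The order of the levels was similar in the 4 genotypes. Vha16, as listed, and Vha55 led in either order, Vha13 came next, and Vha26 and Vha68-2 followed in either order. A step followed: in the V966M heterozygote Vha68-2 was 2.21-fold above VhaSFD, the next gene with a usable status, and their intervals did not overlap. The same step, down to VhaSFD, was 1.95-fold from Vha26 in the V966M homozygote and 2.01-fold from Vha68-2 in the 51B heterozygote, again without overlap. In the 51B homozygote, which had the widest intervals, neighbours overlapped at this place in the order. Of all pairs of neighbours with a usable status, 3 of 17, 3 of 17, 4 of 17 and 2 of 16 had intervals that did not overlap, and the others were not separated at this precision. In rank among the 10872 genes analysed, the 11 main genes lay above 91.8% to 98.5% of genes in every genotype.

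Subunits that occur in equal numbers in the complex were compared by the summed FPKM of all their genes, including paralogues that the table holds under CG numbers. Subunit B summed to 629.8, 506, 428 and 601 FPKM, and subunit A to 604, 493, 426 and 535 FPKM, a ratio of B to A of 1.04, 1.03, 1.01 and 1.12. The ratio of Vha55 to Vha68-2 alone was 1.498, 1.51, 1.55 and 1.74, so B remained above A in all 4 genotypes, but by less, once Vha68-1 and CG5075, which RefSeq now names Vha68-3, were added to subunit A. For the stalk pair, the ratio of Vha13 to Vha26 was 1.04, 1.31, 1.39 and 1.63, and for the rotor pair the ratio of all D genes to all F genes was 1.52, 1.61, 1.67 and 1.84. B and A were closer to an equal level than the other pairs in 3 genotypes, and G and E were slightly closer in the V966M heterozygote. The ratios of G to E and of D to F were lowest in the V966M heterozygote and highest in the 51B homozygote. These ratios are taken within a genotype, so the scale between genotypes does not enter them.

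**Figure D2:**
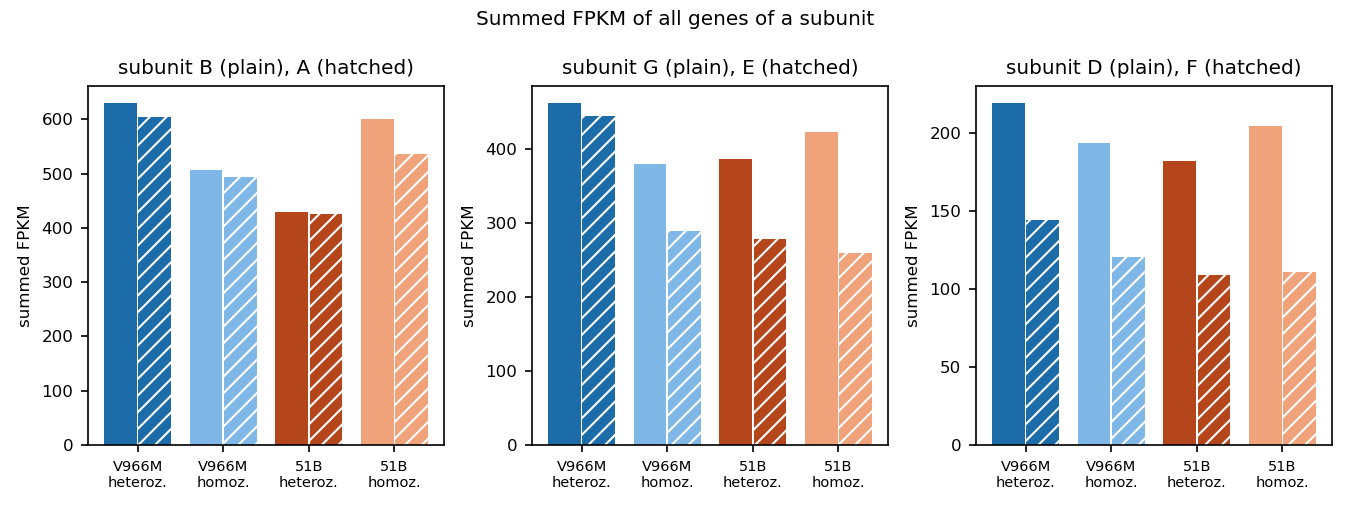
Summed FPKM of all genes of a subunit in each genotype, for subunits B and A, G and E, and D and F, with plain bars for the first and hatched bars for the second of each pair and no error bars, since a sum has no deposited interval. B and A have a ratio from 1.01 to 1.12 and G and E from 1.04 to 1.63, and D lies above F in all 4 genotypes.

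The paralogues among the Vha-named genes were mostly, but not all, of low level. Vha68-1, the second gene of subunit A, had 132 FPKM (97.9 to 166), 113 FPKM (93.4 to 133), 88.7 FPKM (74.7 to 103) and 114 FPKM (75.8 to 152), a level near that of the lower main genes, although below all of them in the 51B heterozygote. As listed, it was at 31.4%, 33.9%, 32.2% and 33.0% of the level of Vha68-2. Vha100-3, of subunit a, had 27.4 FPKM (20.8 to 34.0), 22.3 FPKM (18.8 to 25.8), 30.0 FPKM (25.5 to 34.5) and 33.9 FPKM (23.7 to 44.0). It was lower in both V966M genotypes than in both 51B genotypes, with intervals that overlapped in all genotypes, and it shares its locus with sano and a small nucleolar RNA gene. Vha100-1, the neuronal form of subunit a that acts at synaptic vesicles, was listed at 33.4, 30.04, 28.2 and 29.6 FPKM with a failed status throughout. It shares its locus with CG14512.

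The other paralogues had levels near the middle of all genes or below. Vha16-2 and Vha16-3, both of the ring subunit c, had 7.85, 8.76, 12.0 and 12.8 FPKM and 5.11, 5.70, 7.31 and 6.67 FPKM. VhaM9.7-1, of subunit e, had 6.004, 5.46, 4.61 and 4.42 FPKM, and it shares its deposited locus with CG18675, Teh2, Teh3, Teh4 and tipE. The symbol VhaM9.7-1 is an older name of both VhaM9.7-c and VhaM9.7-a in RefSeq, and since the table lists CG1268, the present VhaM9.7-a, at another locus, it stands here for the former. Vha16-2 and Vha16-3 were higher in both 51B genotypes than in both V966M genotypes, and VhaM9.7-1 was lower. The intervals of all 3 overlapped across stocks at matched zygosity.

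Several V-ATPase genes lie next to each other with very different levels. On 2L, Vha68-2 (12974322 to 12978614 in dm3) ends 171 bases before CG5075, and its mean level over the genotypes was 5.86-fold higher. On 3R, 513 bases lie between the deposited loci of CG7678, now Vha100-4, and of Vha100-2, which runs from 14216039 to 14230448. CG7678 shares its locus with cona, and Vha100-2 with CG12333 and koko, so these bounds are not those of the 2 genes alone. The mean level of Vha100-2, its failed value included, was 24.0-fold higher. Also on 3R, CG7026, now VhaPPA1-2, lies 2048 bases from VhaPPA1-1 (10728048 to 10729796), which was 14.6-fold higher. On 3L, Vha16-3 (11466391 to 11467072) and Vha16-2 (11468058 to 11468652) are 985 bases apart and are both at a low level, with means of 6.20 and 10.3 FPKM. A main gene and a paralogue of lower level were thus neighbours in 3 of these places, and 2 low paralogues were neighbours on 3L.

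Comparing the V966M homozygote with its heterozygote asks whether the pump's genes differed between these genotypes, which differ in both the allele and the TM3 balancer. No V-ATPase gene was called, a call being a log2 change of FPKM + 1 of at least 2-fold with deposited intervals that do not overlap. Among all 10872 genes 0.414% were called, so with 17 genes analysed a count of 0 is near the background. The log2 change of all 11 main genes was below 0, from -0.62 for Vha26 to -0.17 for Vha36, with a median of -0.31. The median of all genes was -0.25, that of genes from 50 FPKM was -0.28, and when a common factor per genotype was divided out, hereafter rescaled, the main genes had a median of -0.040 and all genes -0.00. No V-ATPase gene was called after rescaling (0.193% of all genes) or among genes with a mean of at least 50 FPKM (0.442%, 13 V-ATPase genes of 1584). VhaSFD, at 190.4 and 148 FPKM, was the only V-ATPase gene whose intervals did not overlap, with a log2 change of -0.36, and they overlapped after rescaling (-0.09). Intervals apart at any fold were found in 8.49% of all genes as deposited, 1.93% after rescaling and 14.2% of the genes from 50 FPKM. The 5 paralogues had a median of -0.12, with Vha16-2 (0.14) and Vha16-3 (0.13) above 0.

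The 51B homozygote against its heterozygote also gave no call among the 17 genes, beside 2.81% of all genes, and none after rescaling (2.74%) or from 50 FPKM (6.12%). The median log2 change of the main genes was 0.12, beside 0.07 for all genes and 0.20 for genes from 50 FPKM, the level range of the main genes. After rescaling these medians were -0.00, -0.04 and 0.08, so the main genes lay below the genes of like level. Vha68-2, 276 FPKM in the heterozygote against 345 FPKM without the balancer, was the only V-ATPase gene with intervals apart, beside 12.0% of all genes and 19.3% of those from 50 FPKM. Its log2 change was 0.32, and after rescaling it was 0.20 with overlapping intervals, beside 11.6% of all genes with intervals apart. The other subunit of the catalytic head, Vha55, had 0.49, the largest change of the set, with overlapping intervals, and Vha68-1 had 0.36. At the other end lay Vha26 with -0.10 and Vha16-3 with -0.12. The median absolute log2 change was 0.12 among the V-ATPase genes and 0.23 among all genes, and after rescaling 0.08 and 0.22. In V966M these medians were 0.28 and 0.25, and 0.07 and 0.10 after rescaling.

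Chromosome 3 carries the Ago2 alleles and the balancer, and main genes on it and elsewhere had overlapping changes within a stock. In V966M the main genes on chromosome 3 (5 genes) had a median log2 change of -0.28 (range -0.62 to -0.20). Those on other chromosomes (6 genes) had -0.35 (-0.50 to -0.17). In 51B the values were 0.13 (-0.10 to 0.49) and 0.11 (0.03 to 0.32). A link with position was not tested.

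Between stocks at matched zygosity, 9 of the 11 main genes and 2 of the 5 paralogues exceeded the median change of all genes in each comparison. The difference between main genes and paralogues was not tested. In the V966M heterozygote the main genes were above the 51B heterozygote in 11 of 11 cases, with a median log2 change of 0.47 and a range from 0.26 to 0.68, beside a median of 0.26 for all genes and 0.35 for genes from 50 FPKM. A change above 0 was also found in 74.2% of all genes. After rescaling the main genes had a median of 0.19, beside 0.02 for all genes and 0.07 for genes from 50 FPKM, with 9 of 11 above 0. The V966M heterozygote was the highest of the 4 genotypes for all 11 main genes as deposited, and the 51B heterozygote was the lowest for 8 of them. The summed FPKM of all genes was likewise highest in the V966M heterozygote (645245) and lowest in the 51B heterozygote (493829). The share of all genes with this order was not counted. After rescaling the V966M heterozygote was the highest for 5 of the 11 and the 51B heterozygote the lowest for 4. The 5 paralogues had a median of -0.13 as deposited and -0.40 after rescaling. Their values were -0.55 for Vha16-2, -0.45 for Vha16-3, -0.13 for Vha100-3, 0.32 for VhaM9.7-1 and 0.57 for Vha68-1, so the direction was not shared by all of them.

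No V-ATPase gene was called between the heterozygotes, beside 3.04% of all genes, and none after rescaling (1.95%) or from 50 FPKM (4.86%). Intervals were apart in 1 of 17, VhaSFD (log2 change 0.47), beside 21.0% of all genes and 30.1% of those from 50 FPKM. After rescaling VhaSFD overlapped, and Vha16-2 became the 1 gene with intervals apart, with a log2 change of -0.80, beside 16.0% of all genes. The failed members could not be compared in full: Vha100-2, usable in both heterozygotes, had a log2 change of 0.45 with overlapping intervals.

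Between the homozygotes no V-ATPase gene was called, beside 5.53% of all genes, and none after rescaling (5.15%) or from 50 FPKM (10.4%). None had intervals apart, beside 18.2% of all genes, 16.9% after rescaling and 29.5% of those from 50 FPKM. The main genes had a median log2 change of -0.03, from -0.25 for Vha55 to 0.15 for Vha26, beside -0.11 for all genes and -0.22 for genes from 50 FPKM. After rescaling the median was 0.09, with 9 of 11 above 0. The low paralogues Vha100-3 (-0.58), Vha16-2 (-0.50) and Vha16-3 (-0.20) were below 0 here too, VhaM9.7-1 had 0.25 and Vha68-1 had -0.00. The median absolute log2 change of the 17 genes was 0.13, beside 0.29 for all genes, whereas between heterozygotes it was 0.46, beside 0.32. After rescaling these medians were 0.12 and 0.27 between homozygotes, and 0.21 and 0.23 between heterozygotes. Each genotype enters a pair of the 4 comparisons, so their values are set side by side and not combined.

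**Figure D3:**
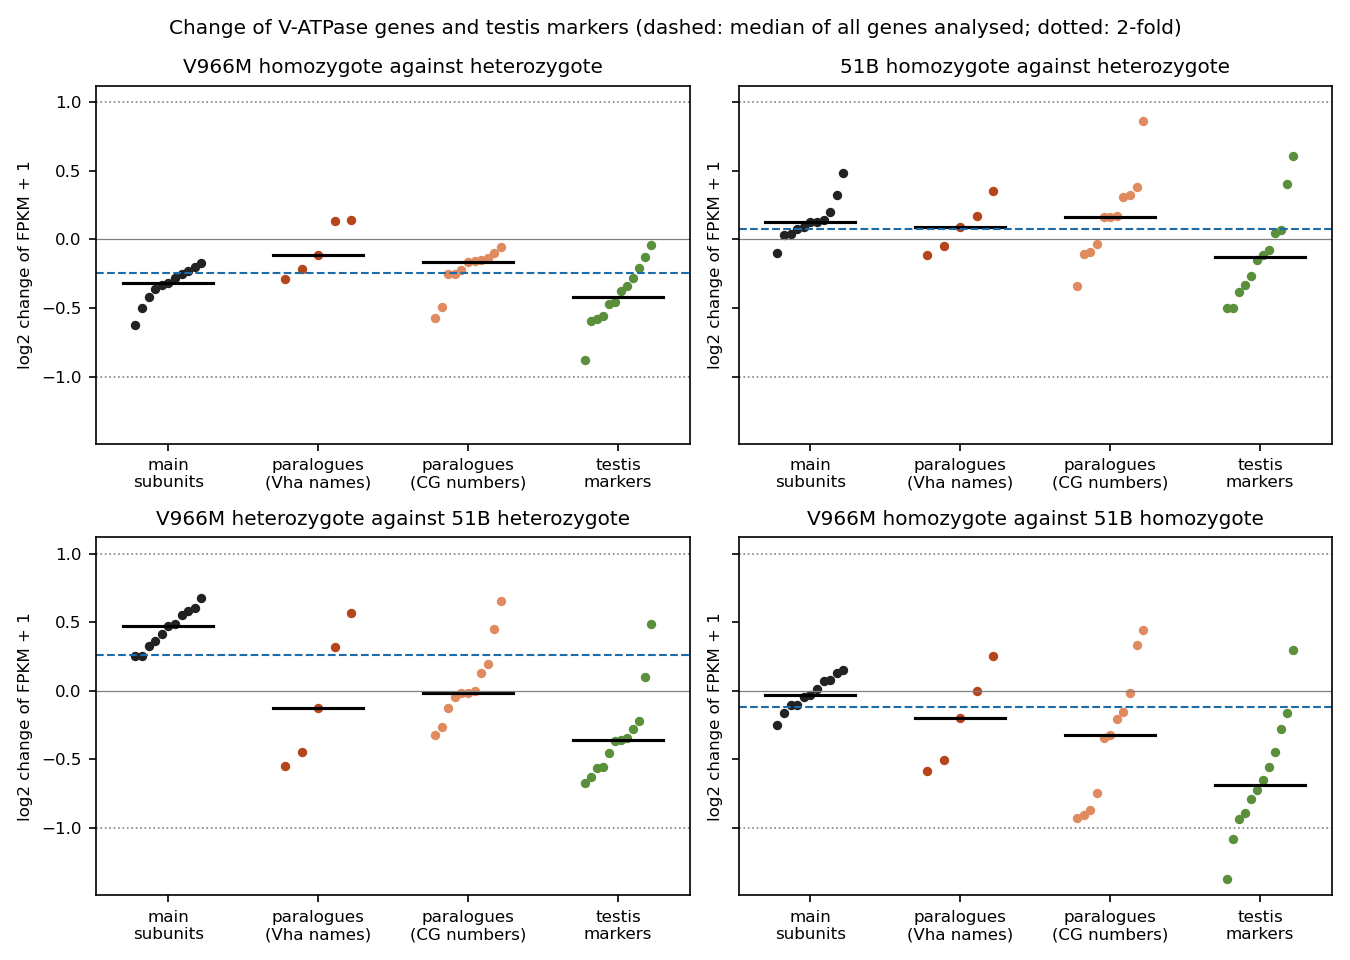
Log2 change of FPKM + 1 as deposited in the 4 comparisons, with 1 point per gene for the 11 main genes, 5 Vha-named paralogues, 11 paralogues under CG numbers and 12 testis markers, black bars at the group medians and the median of all 10872 genes dashed. No V-ATPase gene reaches the 2-fold lines, and between the heterozygotes every main gene is above 0 while the paralogue medians lie at -0.13 and -0.01.

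A further 14 V-ATPase genes were in the table under CG numbers and carry a Vha symbol in RefSeq now, 12 of them paralogues and 2 accessory genes. They fall outside the naming rule and serve here to complete the families. CG9013, now Vha16-4, had 0.439, 0.649, 1.04 and 0.598 FPKM and was below the level analysed. CG8029, now VhaAC45, the accessory subunit of V0, had 238, 198, 171 and 175 FPKM, a level like that of the main genes, and CG31030, now VhaAC45RP, had 24.3, 22.2, 16.6 and 20.5 FPKM. The 11 paralogues analysed had a median log2 change of -0.17 in V966M, 0.16 in 51B, -0.01 between heterozygotes and -0.32 between homozygotes. In this order of comparisons 0 were called in each, beside 0.414%, 2.81%, 3.04% and 5.53% of all genes. Intervals were apart in 0, 1, 1 and 3 of the 11 as deposited, beside 8.49%, 12.0%, 21.0% and 18.2% of all genes. After rescaling the counts were 0, 0, 1 and 1, beside 1.93%, 11.6%, 16.0% and 16.9%.

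Among these paralogues, CG5075, now Vha68-3, had 51.1 FPKM (38.6 to 63.7), 45.4 FPKM (38.01 to 52.8), 61.6 FPKM (52.1 to 71.0) and 76.6 FPKM (52.2 to 101). CG13167, now Vha36-2, had 28.4 FPKM (21.6 to 35.1), 24.2 FPKM (20.3 to 28.0), 35.7 FPKM (30.4 to 41.0) and 46.9 FPKM (33.1 to 60.6). Both were lower in each V966M genotype than in each 51B genotype. The intervals of CG13167 were apart between the homozygotes, with a log2 change of -0.93, and also after rescaling (-0.81), while those of CG5075 (-0.74) overlapped. CG14909, now VhaM9.7-d, had 25.5, 16.8, 25.7 and 32.4 FPKM, and CG7026, now VhaPPA1-2, had 9.24, 8.31, 8.34 and 16.0 FPKM. Their intervals were apart between the homozygotes (-0.90 and -0.87) as deposited and overlapped after rescaling, and CG7026 was also apart between the 51B genotypes (0.86), again not after rescaling. Between the heterozygotes CG14909 (-0.01) and CG7026 (0.13) were close to equal. CG12602, now Vha100-5, had 19.7, 13.7, 12.1 and 13.8 FPKM and CG8310, now Vha36-3, had 25.7, 23.0, 18.5 and 18.1 FPKM, both highest in the V966M heterozygote as deposited, and after rescaling CG12602 alone. The intervals of CG12602 were apart between the heterozygotes (0.65) as deposited but not after rescaling, and those of CG13167 were apart there after rescaling (-0.59) but not as deposited.

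Set against the main gene of the same subunit within a genotype, the listed ratios of paralogues differed in how they varied. CG5075 was at 12.2% of Vha68-2 in the V966M heterozygote and 13.6% in the V966M homozygote, and at 22.4% and 22.2% in the 51B genotypes. From the bounds of both genes these ratios could lie between 7.21% and 20.9%, 10.3% and 17.6%, 16.8% and 29.6%, and 13.9% and 32.1%, ranges that overlap at matched zygosity. CG13167 was at 17.2%, 16.6%, 28.0% and 33.7% of Vha36, with possible ranges that also overlap at matched zygosity. CG8310 was listed at 15.6%, 15.8%, 14.5% and 13.0% of Vha36, and Vha68-1 at between 31.4% and 33.9% of Vha68-2. The Vha68-1 ratio could lie between 18.3% and 54.4% in the V966M heterozygote and between 20.2% and 48.1% in the 51B homozygote. Whether these 2 ratios varied less than the others was thus not separated at this precision. Over all 18 paralogues, 15 had a higher ratio in the 51B heterozygote than in the V966M heterozygote, and 12 in the 51B homozygote than in the V966M homozygote. With only the ratios whose genes had a usable status in both genotypes compared, the counts were 10 of 13 and 6 of 10.

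**Figure D4:**
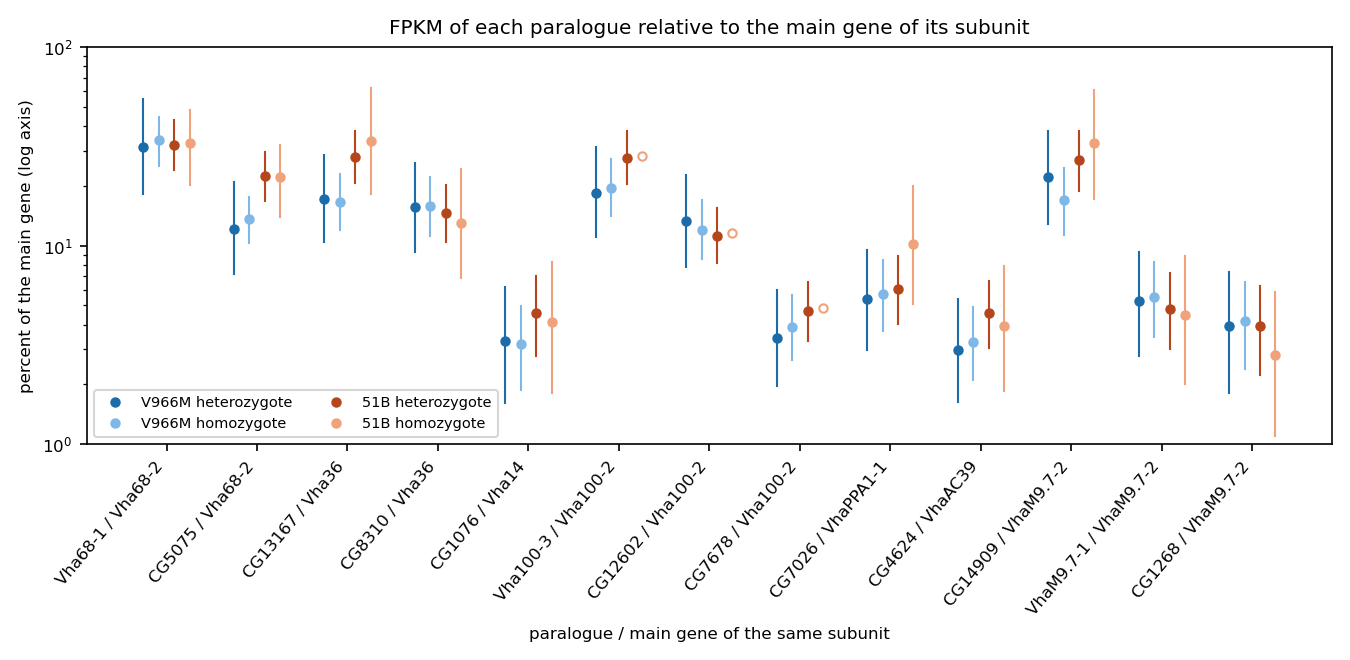
FPKM of 13 paralogues as a percent of the main gene of the same subunit (log axis) in each genotype, with lines for the range that the deposited intervals of both genes allow. Open circles have a failed status of Vha100-2. As listed, CG5075 and CG13167 are lower in the blue V966M genotypes, with ranges that overlap at matched zygosity. Vha68-1 is listed between 31.4% and 33.9%, with wider ranges.

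Markers of tissues that a male holds were measured beside the V-ATPase genes, and their part in the values of those genes was not tested. In bulk RNA, with the males named as source and no tissue, fewer cells of a type and less RNA per cell cannot be told apart. Of 12 testis markers 12 were analysed and none was at 0, and their summed level was 2548, 1990, 3346 and 3588 FPKM. Their median log2 change was -0.36 between heterozygotes, with 10 of 12 below 0, and -0.69 between homozygotes, with 11 of 12 below 0, Mst98Cb and Mst35Bb being called lower in V966M and, after rescaling, Mst98Cb alone. Of 10 Malpighian tubule markers 8 were analysed, with a summed level of 222, 208, 151 and 269 FPKM and none at 0. Uro, the urate oxidase gene, made up 149.5 FPKM of the last value and was the only tubule marker called, in 51B (log2 change 2.55), between homozygotes (-1.39) and, as deposited only, between heterozygotes (1.03). Of 8 genes listed as midgut markers, whose place of expression was not checked here, all were analysed, with 1370, 776, 463 and 1101 FPKM and none at 0. In 51B LysB and LysD were called higher and LysP, Jon25Bi, Jon44E and Jon99Ci lower, between heterozygotes 4 of the 8 were called higher in V966M, and between homozygotes 4 higher and 1 lower. Of 6 neuron markers only n-syb, brp and Syx1A had a usable status, with a sum of 172, 152, 122 and 178 FPKM and 0 calls.

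Genes that work with the pump were described from lists of regulators, acidified compartments, ion transport and growth signalling. Among all genes, 0.414% were called in V966M, 2.81% in 51B, 3.04% between heterozygotes and 5.53% between homozygotes. Rbcn-3A and Rbcn-3B, subunits of the complex that promotes assembly of V1 with V0, had 27.7, 24.9, 19.6 and 26.4 FPKM and 22.3, 20.02, 16.3 and 19.5 FPKM. Mitf, a transcription factor known to activate V-ATPase genes in the fly, had 16.6, 11.3, 10.9 and 8.30 FPKM. None of the 3 was called in any comparison. As deposited all were highest in the V966M heterozygote, but after rescaling Rbcn-3A and Rbcn-3B were higher in the V966M homozygote, by 0.12 and 0.11 on the log2 scale.

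Of 17 lysosomal and endosomal genes analysed, 0 were called in either stock. Their medians were -0.26 in V966M and 0.23 in 51B, beside -0.25 and 0.07 for all genes. Intervals were apart in 4 of the 17 in V966M and 6 in 51B, beside 8.49% and 12.0% of all genes. After rescaling the counts were 0 and 6, beside 1.93% and 11.6%. Between heterozygotes their median was 0.41, with 16 of 17 above 0 and 0 calls. Among all genes the median was 0.26, with 74.2% above 0. After rescaling the list's median was 0.16, with 15 of 17 above 0, beside a median of 0.02 for all genes. Intervals were apart in 7 of the 17 between heterozygotes and 3 between homozygotes, beside 21.0% and 18.2% of all genes. After rescaling the counts were 3 and 3, beside 16.0% and 16.9%. The largest changes within a stock were those of lt, a subunit of the vesicle fusion complex HOPS, at 11.4 and 6.91 FPKM in V966M, CG3305, now Lamp1, a lysosomal membrane protein gene, at 150.3 and 97.6 FPKM in V966M, and Npc2a, a sterol carrier gene, at 92.4 and 141 FPKM in 51B. Of 10 ion transport genes, among them the sodium pump gene Atpalpha and the exchanger genes Nha1 and Nha2, 0 were called in any comparison. Their medians were -0.33 in V966M, 0.05 in 51B, 0.61 between heterozygotes and 0.37 between homozygotes. Those of all genes were -0.25, 0.07, 0.26 and -0.11. Intervals were apart in 2, 1, 6 and 3 of the 10, beside 8.49%, 12.0%, 21.0% and 18.2% of all genes. After rescaling the counts were 1, 2, 3 and 4, beside 1.93%, 11.6%, 16.0% and 16.9%. Of 9 genes of TOR signalling, the nutrient pathway that is sensed at the lysosome, Thor, an inhibitor of translation, was called higher in the 51B homozygote (142 and 362 FPKM, log2 change 1.34) and lower in the V966M than in the 51B homozygote (120.0 and 362 FPKM, -1.59), and no other member was called.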

How the data were processed

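The deposited table held FPKM values, 1 per gene and genotype, with an interval and a status, per the file headers. TopHat and Cufflinks with build dm3 were used, per the submitters' processing notes. The sources used here do not give their versions, the annotation, the interval level or the strandedness. Duplicates are named in the design text, whereas the table has 1 value per genotype, and depth is unknown.

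The analysis kept 10872 genes whose mean was at least 1 FPKM and whose status was OK throughout, among them 17 of 20 V-ATPase genes. Changes were computed as log2 of FPKM + 1, which understates those of low genes. Rescaling divided the values of a genotype by the median, over genes, of their ratio to the gene's geometric mean (1.13, 0.936, 0.932 and 1.02 in the order of the text). Starts are counted from 1: of 6668 genes with their own locus, 1180 matched their length in a later annotation when the start was taken as 0-based and 109 as 1-based. Names of CG-numbered genes come from RefSeq. All 20 V-ATPase genes are named, and from other lists those called and those with the largest changes within a stock, as space allowed. The V-ATPase genes and all lists were chosen with earlier results of these data known, and 4 genes were removed from the lists as wrongly placed, repeated or not annotated, and 5 symbols were replaced by the table's own, after values had been seen. Python 3.11.15 with pandas 2.3.3 was used.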

Additional observations from a re-analysis of the deposited data

How the results depend on the processing

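No V-ATPase gene was called in any of the 4 comparisons after rescaling, with a pseudocount of 5 FPKM, without a filter on the mean, with a mean of at least 5 FPKM, or without genes that share a locus. The same held for 3 alternatives chosen after seeing the data: a mean of at least 50 FPKM, without chromosome 3 genes, and with Vha100-2 added where its status was OK in the genotypes compared. In V966M the calls among all genes were 21 of 10872 after rescaling, 15 of 10872 with the larger pseudocount and 49 of 13197 without the filter. They were 30 of 7967 from a mean of 5 FPKM and 30 of 6990 without shared loci. A count of 0 among 13 to 17 V-ATPase genes is near these shares. Dropping the 2-fold threshold gave 1 gene in V966M, 1 in 51B, 1 between heterozygotes and 0 between homozygotes. The shares of all genes were 8.49%, 12.0%, 21.0% and 18.2%. Rescaling moved the median of the main genes from -0.31 to -0.040 in V966M and from 0.47 to 0.19 between heterozygotes, as a shift of all values by its construction. It turned the sign of the main genes' median in 51B (0.12 to -0.00) and between homozygotes (-0.03 to 0.09), and of the paralogues' median in V966M (-0.12 to 0.12) and 51B (0.09 to -0.03). Without genes that share a locus that median was 0.13 in V966M from 3 genes, and the main genes' median was 0.01 between homozygotes. Between heterozygotes the paralogues' median was -0.13, 0.22 without chromosome 3 genes (2 genes left) and 0.57 from 50 FPKM (Vha68-1 alone). No paired analysis was possible because each genotype has 1 value and no replicate number. The margins of single V-ATPase genes ran from 6.16% to 42.8% of the value, which limits the changes that single values can separate.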
